A study of Mus musculus with 46 samples.

Results

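Hearts of C57BL/6J and MRL/MpJ mice were compared for how the surviving, non-infarct part of the left ventricle changed by day 1 after myocardial infarction. The quantity described is a difference of changes on the log2 scale: the day 1 minus day 0 change of MRL, less the same change of C57, so that a positive value means a larger rise or a smaller fall in MRL. All 22626 probe sets of the array that are not manufacturer's controls, of 22690 in all, were taken, and no measured value chose them. Of these, 12344 (54.6%) lay above their array's median in at least 3 of the 23 non-infarct arrays and were tested, and they stood for 7322 genes with a single symbol.

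All mice were male and 15 to 20 weeks old. The 4 groups were C57BL/6J at day 0 (n = 3), C57BL/6J at day 1 (n = 4), MRL/MpJ at day 0 (n = 4) and MRL/MpJ at day 1 (n = 4), and the labels call each array a biological replicate. Day 1 mice had their left coronary artery tied off under isoflurane and were given buprenorphine, while day 0 mice had no operation, so infarction and the operation itself cannot be told apart in either strain. Day 0 tissue was cut from the same place as the later non-infarct tissue, and RNA of the whole piece went to an Affymetrix MOE430A array. MRL/MpJ is an inbred strain known for unusually complete closure of ear wounds, and the design asks whether its heart also answers infarction differently.

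The tissue was heart muscle: Myh6, the main myosin heavy chain of the adult mouse ventricle, lay between 15.13 and 15.53 on the log2 scale in all 15 arrays. Myh6 alone does not tell which part of the heart was cut. Summed atrium and conduction markers (12 genes, Nppa among them, linear intensity) were 2460 to 4910 in C57 and 5970 to 8500 in MRL at day 0. At day 1 they were 4940 to 11900 in C57 and 10200 to 25500 in MRL, and the reason was not tested. Summed markers of neutrophils (14 genes, Lcn2 among them, linear intensity) were 98.7 to 126 in C57 and 102 to 110 in MRL at day 0. At day 1 they were 1500 to 2570 in C57 and 488 to 1040 in MRL, and Lcn2 made up much of these sums. Summed skeletal muscle markers (15 genes) were higher in MRL at both days, 23800 to 28200 against 12300 to 18100 in C57. Nearly all of this sum came from Acta1, Ckm, Myl1 and Tnnt1, the 4 that were tested. In C57 at day 0 these 4 gave 15620 to 18050, against 15700 to 18100 over all 15. The other markers were too dim to be tested, so the sum says little about them. In whole tissue, fewer cells of a type and less RNA per cell cannot be told apart. MRL day 1 arrays were spread along the second principal component, with replicate 3 the highest at 13.9 and the rest from -13.9 (replicate 1) to 2.7. C57 day 1 lay from 27.9 to 50.4. Printed calls that are lost without MRL day 1 replicate 3 are named beside their values. Whether the probes match the MRL sequence equally well was not analysed here, which touches levels compared between strains more than changes within a strain.

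Guanylate-binding proteins, immunity-related GTPases and IFIT proteins are made by nearly all cells in answer to interferon, a signal that runs from its receptor through STAT factors to short DNA elements near the start of these genes: the interferon-stimulated response element (ISRE) and the gamma-activated site (GAS). Class II MHC proteins, which present peptides to helper T cells, answer to interferon gamma through a separate activator. Another set of genes rises in heart muscle and its vessels within hours of injury, under stress steroids (glucocorticoids), which act through the glucocorticoid response element (GRE), and under interleukin 6, which drives the acute phase response. Both sets are described below, after the overall counts.

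The promoters of 5 genes of the interferon group, picked after their values were seen and each with a positive difference of changes, are printed first. That of Gbp3, the 1 gene that passed the test, is among them. The sequences show where the ISRE letters lie in these genes, not how often the group holds them. They are from RefSeq on GRCm38.p6, 250 bases before to 50 bases from the gene's start, on the plus strand, and capitals mark the core of the ISRE on either strand: GAAA, any 2 bases, then GAAA again. They lie at chr3:142559794-142560093 (Gbp3), chr3:142620413-142620712 (Gbp2), chr3:142530086-142530385 (Gbp7), chr11:58214727-58215026 (Irgm2) and chr19:34583279-34583578 (Ifit3).
Gbp3: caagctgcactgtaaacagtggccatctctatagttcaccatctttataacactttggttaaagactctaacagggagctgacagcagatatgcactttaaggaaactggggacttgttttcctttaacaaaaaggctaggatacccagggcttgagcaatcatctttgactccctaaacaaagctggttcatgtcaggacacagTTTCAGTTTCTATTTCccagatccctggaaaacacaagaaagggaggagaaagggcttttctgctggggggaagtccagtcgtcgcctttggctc
Gbp2: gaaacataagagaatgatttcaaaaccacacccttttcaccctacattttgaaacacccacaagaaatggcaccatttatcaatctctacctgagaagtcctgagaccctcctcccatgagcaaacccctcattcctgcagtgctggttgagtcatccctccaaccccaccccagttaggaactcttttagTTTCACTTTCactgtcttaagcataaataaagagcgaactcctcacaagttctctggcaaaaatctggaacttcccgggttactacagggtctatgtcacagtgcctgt
Gbp7: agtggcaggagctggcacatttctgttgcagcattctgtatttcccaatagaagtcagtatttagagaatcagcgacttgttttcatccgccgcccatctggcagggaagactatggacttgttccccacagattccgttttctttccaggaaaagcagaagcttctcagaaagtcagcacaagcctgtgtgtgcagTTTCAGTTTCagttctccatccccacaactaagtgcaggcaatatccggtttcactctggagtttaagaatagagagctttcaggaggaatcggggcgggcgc
Irgm2: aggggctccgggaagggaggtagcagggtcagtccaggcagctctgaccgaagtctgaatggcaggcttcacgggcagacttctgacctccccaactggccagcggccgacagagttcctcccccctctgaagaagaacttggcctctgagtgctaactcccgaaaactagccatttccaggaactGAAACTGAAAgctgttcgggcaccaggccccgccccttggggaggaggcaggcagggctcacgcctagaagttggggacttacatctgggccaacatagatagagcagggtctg
Ifit3: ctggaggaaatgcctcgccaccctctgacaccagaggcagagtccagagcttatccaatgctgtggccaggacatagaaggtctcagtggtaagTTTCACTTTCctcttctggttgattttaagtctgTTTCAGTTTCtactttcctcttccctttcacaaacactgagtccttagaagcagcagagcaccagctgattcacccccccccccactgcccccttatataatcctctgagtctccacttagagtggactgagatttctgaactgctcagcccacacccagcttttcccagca

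Gbp3, Gbp2 and Gbp7 are neighbours on chromosome 3, and each carried the ISRE letters within 59 bases of its start: 45 to 30 bases before it in Gbp3 (2 overlapping matches), 59 to 50 in Gbp2 and 53 to 44 in Gbp7. Irgm2 had them 64 to 55 bases before the start, and Ifit3 had 2 matches at 156 to 147 and 122 to 113 bases. Over all 32851 promoters of this length the ISRE letters stood in 3.44%, and over the 5964 tested genes with a promoter in 3.79%. In the fixed list of interferon response genes, 18 of 21 tested members had a promoter in the table, and 11 of the 18 held the ISRE letters. TTCNNNGAA (the GAS core) stood in 8 of those 18 and in 8.3% of all promoters. A match is a run of letters, not a bound site.

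Each strain's own change was tested first. In C57, 335 probe sets rose (2.71% of those tested) and 157 fell (1.27%) by day 1 at an adjusted p under 0.05 in limma. In MRL, 97 rose (0.786%) and 24 fell (0.194%). Single arrays weigh on these counts: the C57 total of 492 was 177 without day 0 replicate 1, 242 and 256 without day 0 replicates 3 and 2, and 289 without day 1 replicate 1, and it was 934 without C57 day 5 replicate 3, an array that stands far from all others and only adds to the estimate of spread. The MRL total of 121 was 317 without that array, 212 without MRL day 1 replicate 1, and 45 to 65 without any other 1 of the 8 MRL arrays. The difference of changes itself passed for 1 probe set, Gbp3 (0.0081%), although 413 (3.35%) had an unadjusted p under 0.05. Its median standard error was 0.303 on the log2 scale. Differences below are given with their standard error after the sign ±, and those of the genes named other than Gbp3 did not pass over all probe sets in the reported fit.

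The changes of both strains, which share no arrays, correlated across probe sets with r = 0.688 (probe sets are not independent replicates), and the spread of changes was 0.491 (SD) in C57 and 0.392 in MRL. Of the probe sets that rose in C57, 64 also rose in MRL (19.1% of the C57 list and 66% of the MRL list), and 319 of 335 had an MRL change above 0. Their median change was 1.15 in C57, the strain that selected them, and 0.57 in MRL. Among those that fell, 6 were shared (3.82% and 25%), and 0 were called in opposite directions. Sorted by direction, the 413 probe sets with an unadjusted p under 0.05 held 102 with a larger rise in C57 and 6 with a larger rise in MRL. Another 62 had the larger fall in C57 and 15 the larger fall in MRL, and 123 were higher in C57 but lower in MRL, with 105 the other way round.

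**Figure D1:**
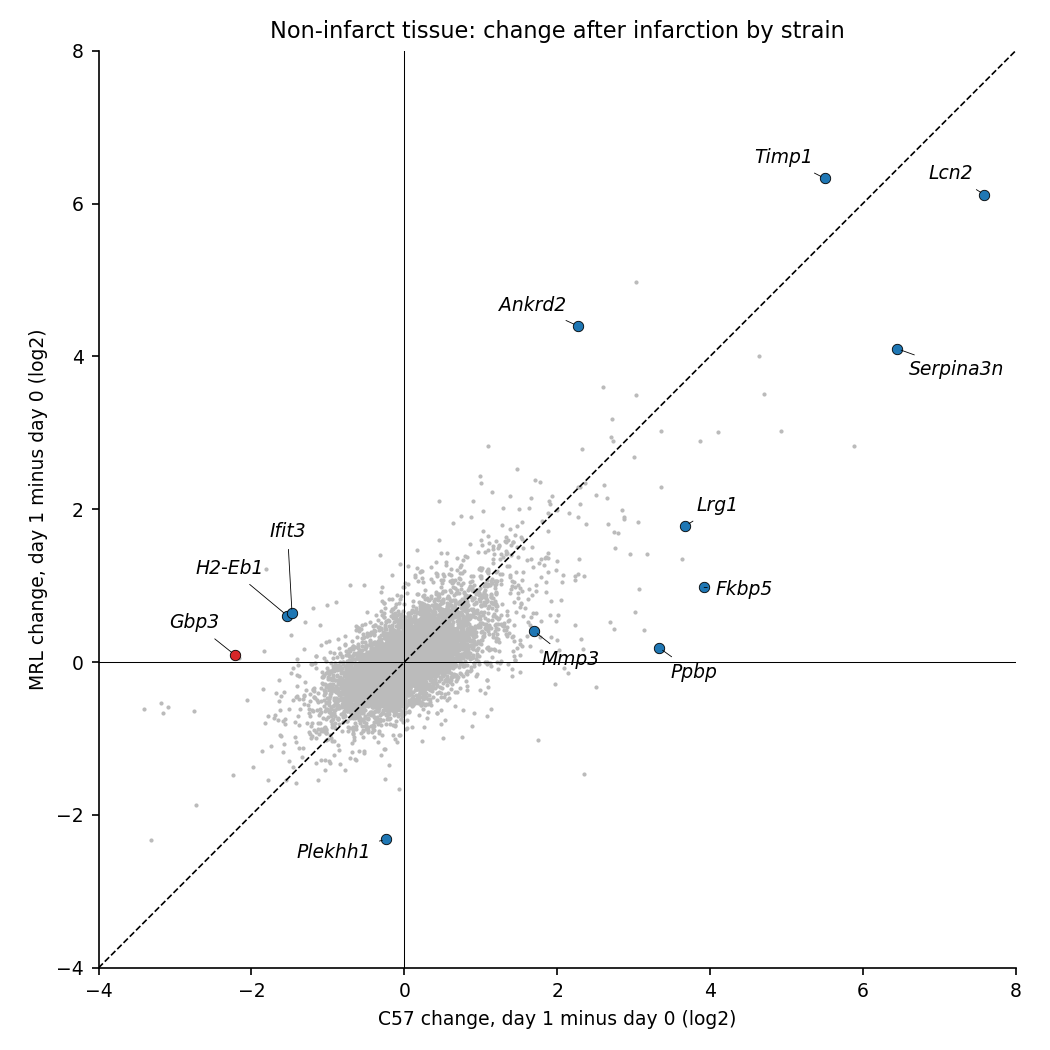
Change from day 0 to day 1 in C57 (horizontal) and MRL (vertical) non-infarct tissue, log2, 1 point per tested probe set, with named genes marked. Points below the diagonal have a difference of changes under 0: Lcn2 (7.59 in C57, 6.12 in MRL) and Serpina3n (6.45 and 4.10) lie far up both axes, while Gbp3 (-2.22 and 0.10) stands to the left near the zero line of MRL.

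Before infarction, 118 probe sets were higher in MRL than in C57 (0.956%) and 104 lower (0.843%). At day 1, 177 were higher (1.43%) and 165 lower (1.34%). These tests share arrays with the difference of changes and are used here only to show the levels from which each gene started. Of the 38 called C57 changes printed for single genes, 24 stood without any 1 array, and the calls of Ifit3, Ifit1, H2-Eb1, Dusp10, Ppbp, Cebpd, Sult1a1, Timp4, Socs3, Ankrd1, Xirp1, Rcan1, Dbp and Hlf were lost without at least 1 C57 array. Of the 20 called MRL changes, 14 stood. Those of Angptl4, Socs3, Ccl7, Hmox1 and Ccn2 were lost without MRL day 1 replicate 3 among others, and that of Ifitm3 without MRL day 0 replicate 4 (adjusted p = 0.052).

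Gbp3 encodes guanylate-binding protein 3, an interferon-induced GTPase of cell-intrinsic immunity. Its log2 intensity was 6.16, 5.65 and 6.20 in C57 at day 0 and 4.00, 3.87, 3.77 and 3.49 in C57 at day 1. In MRL it was 5.25, 5.59, 5.95 and 5.91 at day 0 and 6.44, 5.61, 5.66 and 5.39 at day 1. Every C57 day 1 array lay below every other array, and the other 3 groups overlapped. Each C57 day 1 value also lay below the median of its own array, so the size of the fall is not exact. Gbp3 fell by 2.22 ± 0.23 (SE) in C57 (limma, adjusted p = 1e-05), while the MRL change was 0.10 ± 0.21 (adjusted p = 0.93). The difference of changes was 2.31 ± 0.31 (limma, adjusted p = 0.0044). The strains started level, with MRL minus C57 at -0.32 on day 0 (adjusted p = 0.92), and stood 1.99 apart on day 1 (adjusted p = 1e-05).

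At day 5 the C57 levels of Gbp3 were 5.95, 5.82, 6.14 and 6.24, back among those of day 0, and the MRL levels were 6.20 to 6.85. The day 5 difference of changes, which shares the day 0 arrays, was 0.90. In infarct tissue, on other arrays, C57 went from 6.09, 5.80 and 6.01 to 4.42, 4.35, 6.02 and 5.25 by day 1, and MRL from between 5.22 and 6.07 to between 5.75 and 6.67. There the difference of changes was 1.45 ± 0.48 (adjusted p = 0.96), of the same sign, and the test of region against region did not pass. Which infarct and non-infarct arrays came from the same heart is not stated. The call was lost when only the 15 arrays of days 0 and 1 were fitted (adjusted p = 0.058) and when 32 was added to each intensity before the logarithm (1.14, adjusted p = 0.11), and it stood without any single array of the 15.

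Relatives of Gbp3 on the array were examined after their values were seen. Gbp2, another guanylate-binding protein, was at 6.84, 6.88 and 6.88 in C57 at day 0 and at 4.47, 5.66, 6.31 and 3.67 at day 1. In MRL it was at 4.80, 5.57, 5.54 and 5.46, then at 7.09, 4.75, 4.44 and 5.67. The difference of changes of this probe set, the dimmer of 2 for Gbp2, was 1.99 ± 0.70. The C57 arrays of the 2 days did not overlap, whereas MRL day 1 replicate 1 was the highest and the rest of its group spread around the day 0 values. The brighter Gbp2 probe set, by the rule used here the one that stands for the gene, gave 1.17 ± 0.44. Its C57 change was -0.86 (limma, adjusted p = 0.15). Gbp7 had a difference of 1.19 ± 0.42, and Gbp6 a value of -0.55 ± 0.65. Probe sets for Gbp8, Gbp2b and a second one for Gbp7 were too dim to be tested.

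Ifit3, an antiviral protein that binds foreign RNA together with its IFIT partners, was at 6.58, 6.56 and 6.66 in C57 before infarction and at 4.59, 5.39, 5.59 and 4.95 at day 1. MRL arrays read 4.10, 5.09, 3.98 and 4.16 at day 0 and 5.25, 4.47, 5.06 and 5.09 at day 1. Ifit3 thus fell by 1.47 in C57 (adjusted p = 0.033), while its MRL change was 0.64 (adjusted p = 0.49). Unlike Gbp3, it already differed at day 0, when it was lower in MRL by 2.27 (limma, adjusted p = 0.0013), and at day 1 the groups overlapped. Its difference of changes was 2.11 ± 0.51 (adjusted p = 0.61). In infarct tissue the difference was 0.04, against 2.11 in non-infarct tissue, and a test of the regions against each other did not pass. In MRL at day 0, 3 of 4 values lay below the median of their array, where a fall could hardly be seen, and with 32 added to each intensity the difference was 1.20. A near-identical copy, Ifit3b, may not be separated by these probes.

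Irgm2, an immunity-related GTPase that guards vacuoles against parasites, was at 6.03, 6.82 and 6.44 and then at 5.17, 5.55, 5.66 and 4.56 in C57. In MRL it was at 5.55, 5.84, 5.05 and 5.68 and then at 7.02, 5.14, 6.18 and 6.60. Its difference of changes was 1.90 ± 0.52 (adjusted p = 0.83), with a C57 change of -1.20 and an MRL change of 0.70. In 3 of 4 MRL day 1 arrays it lay above all MRL day 0 arrays. Ifitm3, a membrane protein that blocks virus entry, showed the other form of difference: it rose in MRL by 0.87 (adjusted p = 0.012) from a lower start (-0.77 against C57, adjusted p = 0.027), and its C57 change was -0.10 (adjusted p = 0.85). Its MRL levels were 10.24, 10.27, 10.17 and 9.91 at day 0 and 11.20, 11.04, 10.92 and 10.93 at day 1, beside a C57 range of 10.33 to 11.17 over both days. Its difference of changes was 0.97 ± 0.25 (adjusted p = 0.61).

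Over the whole interferon response list, 19 of 21 tested members had a positive difference of changes and 9 had an unadjusted p under 0.05, against 54.1% and 3.48% of all 7322 tested genes. The median was 0.68 for the list and 0.02 for all genes. These values of all genes are the background for the counts of each list below. In C57, 3 members fell (Gbp3, Ifit1 and Ifit3) and 0 rose, with a median change of -0.71. In MRL 0 were called in either direction (median 0.09). Ifitm3, which rose in MRL, and Irgm2 are not on this list. MRL was lower than C57 in 5 members at day 0, and higher in 1 and lower in 2 at day 1. Ifit1 fell by 1.39 in C57 (adjusted p = 0.025) and was between 1.96 and 2.33 in all 8 MRL arrays of both days, a level at the bottom of the scale from which no fall could be seen. Bst2 tethers budding viruses to the cell (difference 1.83 ± 0.71), and Rtp4 is a negative regulator of interferon signalling (1.49 ± 0.51). Both were also lower in MRL before infarction, at 3.41 to 3.91 and 3.46 to 4.33 against 5.18 to 6.48 and 4.96 to 5.61. All these MRL values of Bst2 and some of Rtp4 lay below the array medians, the lowest of which was 4.22. A fall from there could hardly be seen. Fitted on the 15 arrays of days 0 and 1, the list's median over the members that passed the filter there was 1.04. With 32 added to each intensity it was 0.40. The filter on dim probe sets would not have admitted Ifih1, Ifit1, Irf8, Oasl2 and Usp18 without the arrays of 1 group, and over the other 16 members, a choice made after seeing the data, 14 were positive, 8 had an unadjusted p under 0.05 and the median was 0.94.

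**Figure D2:**
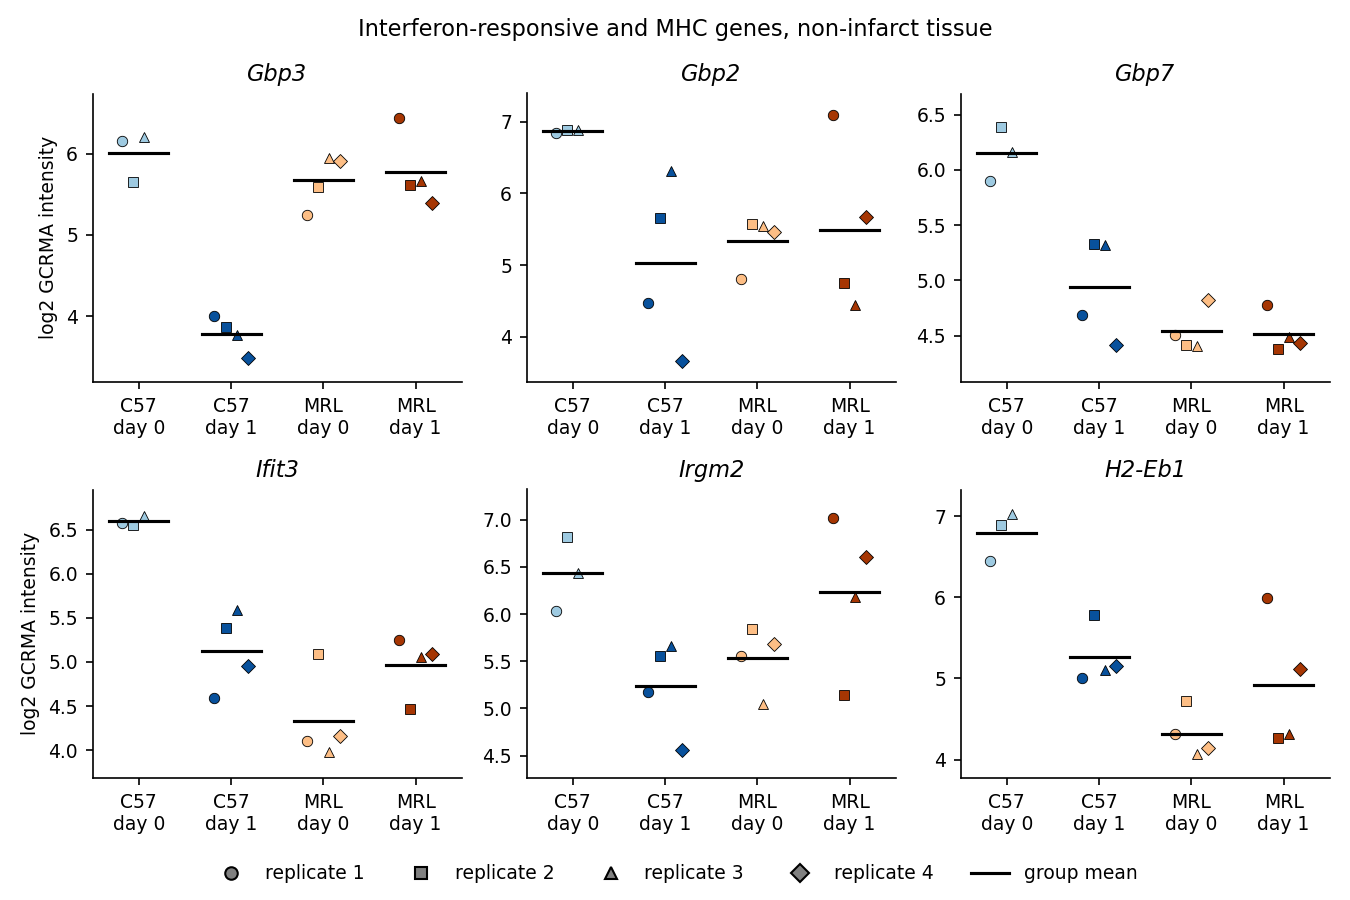
Log2 intensity of Gbp3, Gbp2, Gbp7, Ifit3, Irgm2 and H2-Eb1 in each non-infarct array of day 0 and day 1, with markers by replicate and a black line at each group's mean. For Gbp3 the C57 day 1 arrays (3.49 to 4.00) sit alone at the bottom, while for Ifit3 and H2-Eb1 the C57 day 0 arrays sit alone at the top. The Gbp2 panel shows its dimmer probe set.

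Class II MHC genes had the same pattern of levels as Ifit3. H2-Eb1, a beta chain of the class II molecule, was at 6.45, 6.89 and 7.03 in C57 at day 0 and 5.00, 5.78, 5.11 and 5.15 at day 1. In MRL it was at 4.32, 4.72, 4.07 and 4.14 and then at 5.99, 4.27, 4.31 and 5.12. It fell by 1.53 in C57 (adjusted p = 0.011). The MRL change was 0.61 (adjusted p = 0.42), with 2 of its 4 arrays above the day 0 range, and the difference of changes was 2.14 ± 0.45 (adjusted p = 0.26). At day 0 it was lower in MRL by 2.48 (adjusted p = 0.00013) and at day 1 the gap was 0.34 (adjusted p = 0.75). At day 0, 2 of 4 MRL values lay below the median of their array, and with 32 added the difference of changes was 1.32. H2-Aa, an alpha chain, had a difference of 3.03 ± 0.94, and a second H2-Aa probe set gave 1.75 ± 0.79. H2-Aa ranged from 2.55 to 5.14 in MRL at day 0 and from 3.21 to 7.35 at day 1. In C57 it ranged from 7.90 to 8.20 and from 6.00 to 6.63. It lay above the array median in only 2 of 4 MRL arrays at day 0, so the size of its difference is not exact. The invariant chain Cd74, which guides class II molecules to the endosome, had a value of 1.82 ± 0.65.

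Of the 11 tested members of the MHC and antigen presentation list, 10 had a positive difference of changes and 5 an unadjusted p under 0.05, with a median of 0.83. In C57, 1 fell (H2-Eb1), and in MRL 0 were called. At day 0, 6 were lower in MRL, and at day 1, 2 were. The strains carry different MHC haplotypes as inbred lines, and the share of the baseline gap due to probe mismatch was not tested. Without MRL day 1 replicate 3, 7 members had an unadjusted p under 0.05, with a median of 0.97. Psmb8, an immunoproteasome subunit, is on both this list and the interferon list. Summed monocyte and macrophage markers (29 genes), from cells that carry class II, were 3430 to 4180 in C57 and 2840 to 3120 in MRL at day 0, and 2770 to 4950 and 3160 to 4750 at day 1, and their part in these values was not tested.

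The remaining genes with the smallest p and a positive difference have other roles. Timeless, which steadies the replication fork, had a difference of 1.68 ± 0.42, with changes of -0.89 in C57 and 0.79 in MRL that did not pass. Pfkl, the liver-type phosphofructokinase of glycolysis, fell by 0.73 in C57 (adjusted p = 0.0043). Its MRL change was 0.01, and its difference of changes 0.74 ± 0.19. The strains were level at day 0 (0.01) and 0.75 apart at day 1 (adjusted p = 0.0011), the same form as Gbp3 at a smaller size. Dusp10, a phosphatase of stress-activated kinases, fell by 0.69 in C57 (adjusted p = 0.037) and had a difference of 0.97 ± 0.25. A second Dusp10 probe set gave 0.41 ± 0.21.

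On the negative side, the genes named for the smallest p had a larger rise in C57, other than Acy1 and Plekhh1. Ppbp, the platelet basic protein from which a neutrophil-attracting chemokine is cut, was at 2.44, 2.29 and 2.39 in C57 at day 0 and at 7.39, 6.06, 4.09 and 5.29 at day 1. In MRL it stayed between 2.28 and 2.40 at day 0 and read 2.36, 2.31, 2.37 and 3.04 at day 1. No C57 day 1 array overlapped any other group. The filter admitted Ppbp only through 3 of the C57 day 1 arrays, the group where it is high, so its test there is not independent of the filter. With no filter, Ppbp rose in C57 by 3.34 (limma, adjusted p = 0.00064), the MRL change was 0.19 (adjusted p = 0.99) and the difference of changes was -3.15 (adjusted p = 0.38). In infarct tissue at day 1, C57 lay at 7.13 to 9.03 and MRL at 3.69 to 7.42, with a difference of -2.21 ± 0.97. Because 12 of the 15 values lie below the median of their own array, the size of the difference is not exact. The summed erythroid and platelet markers (10 genes, Ppbp among them) were 308 to 340 and 240 to 274 at day 0 in C57 and MRL, and 369 to 688 and 253 to 465 at day 1.

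Serpina3n, a secreted inhibitor of serine proteases and an acute phase gene, was at 3.66, 3.64 and 4.13 in C57 at day 0 and at 10.29, 9.52, 11.17 and 10.05 at day 1. MRL arrays read 5.54, 5.20, 5.09 and 6.10, then 9.16, 8.98, 10.48 and 9.72. It rose in both strains, by 6.45 in C57 (adjusted p = 3.8e-09) and by 4.10 in MRL (adjusted p = 2.5e-06), and its difference of changes was -2.35 ± 0.56 (adjusted p = 0.50). Most of that gap lay before infarction, when MRL was higher by 1.68 (adjusted p = 0.034). At day 1 the groups overlapped (-0.67, adjusted p = 0.48). All 3 C57 values at day 0 lay below the median of their array, so the baseline gap is not exact, and with 32 added the difference of changes was -1.40.

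Lrg1, a secreted glycoprotein that alters TGF-beta signalling in vessels, stood at 7.46, 8.20 and 8.40 and then at 12.08, 10.97, 12.26 and 11.49 in C57. In MRL it stood at 8.60, 8.91, 8.35 and 9.11 and then at 10.22, 10.32, 10.84 and 10.71. It rose in both, by 3.68 (adjusted p = 1.4e-06) and 1.78 (adjusted p = 0.0045), and all C57 day 1 arrays lay above all MRL day 1 arrays. The difference of changes was -1.90 ± 0.45 (adjusted p = 0.50).

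Mmp3, the matrix protease stromelysin 1, read 4.09, 3.66 and 3.78 and then 5.36, 6.12, 5.45 and 5.24 in C57. In MRL it read 3.85, 3.64, 3.60 and 3.85 and then 3.99, 3.79, 4.85 and 3.94. It too met the filter only through C57 day 1. With no filter it rose in C57 by 1.70 (adjusted p = 0.00033). The MRL change was 0.41 and came mainly from replicate 3. Its difference of changes was -1.29 ± 0.29, or -1.53 without that array, when only the C57 day 1 arrays carried it past the filter.

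Hsd11b1, the enzyme that regenerates active glucocorticoid inside cells, was at 5.87, 6.33 and 6.74 and then at 8.35, 7.41, 9.06 and 7.62 in C57. MRL arrays lay between 7.19 and 7.56 at day 0 and between 7.18 and 7.96 at day 1. Hsd11b1 rose in C57 by 1.79 (adjusted p = 0.0022), from below the MRL level to within or above it. Its MRL change was 0.15 (adjusted p = 0.91) and the difference of changes -1.65 ± 0.42. Tmed5, a cargo receptor of the early secretory pathway, rose in C57 by 1.20 (adjusted p = 6.8e-04) and had a difference of -0.88 ± 0.24. A second Tmed5 probe set gave -0.33 ± 0.31. Acy1, an aminoacylase, had a difference of -0.83 ± 0.20 with neither change passing (0.27 in C57 and -0.56 in MRL).

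Plekhh1, a protein with pleckstrin homology and FERM domains, was the reverse case, a fall seen in MRL. Its C57 levels lay between 3.37 and 4.06 in all 7 arrays, below the array medians, so a fall there could not have been measured. Its MRL levels were 6.65, 7.05, 7.18 and 6.61 at day 0 and 5.44, 4.37, 3.57 and 4.85 at day 1. It fell by 2.32 in MRL (adjusted p = 2.7e-04) and the difference of changes was -2.08 ± 0.44 (adjusted p = 0.26). The second probe set of Plekhh1 gave -1.58, and in infarct tissue, on other arrays, it was one of 6 that passed (-2.56, limma, adjusted p = 0.00057). With 32 added to each intensity Plekhh1 passed in non-infarct tissue too (-1.32, adjusted p = 0.026).

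**Figure D3:**
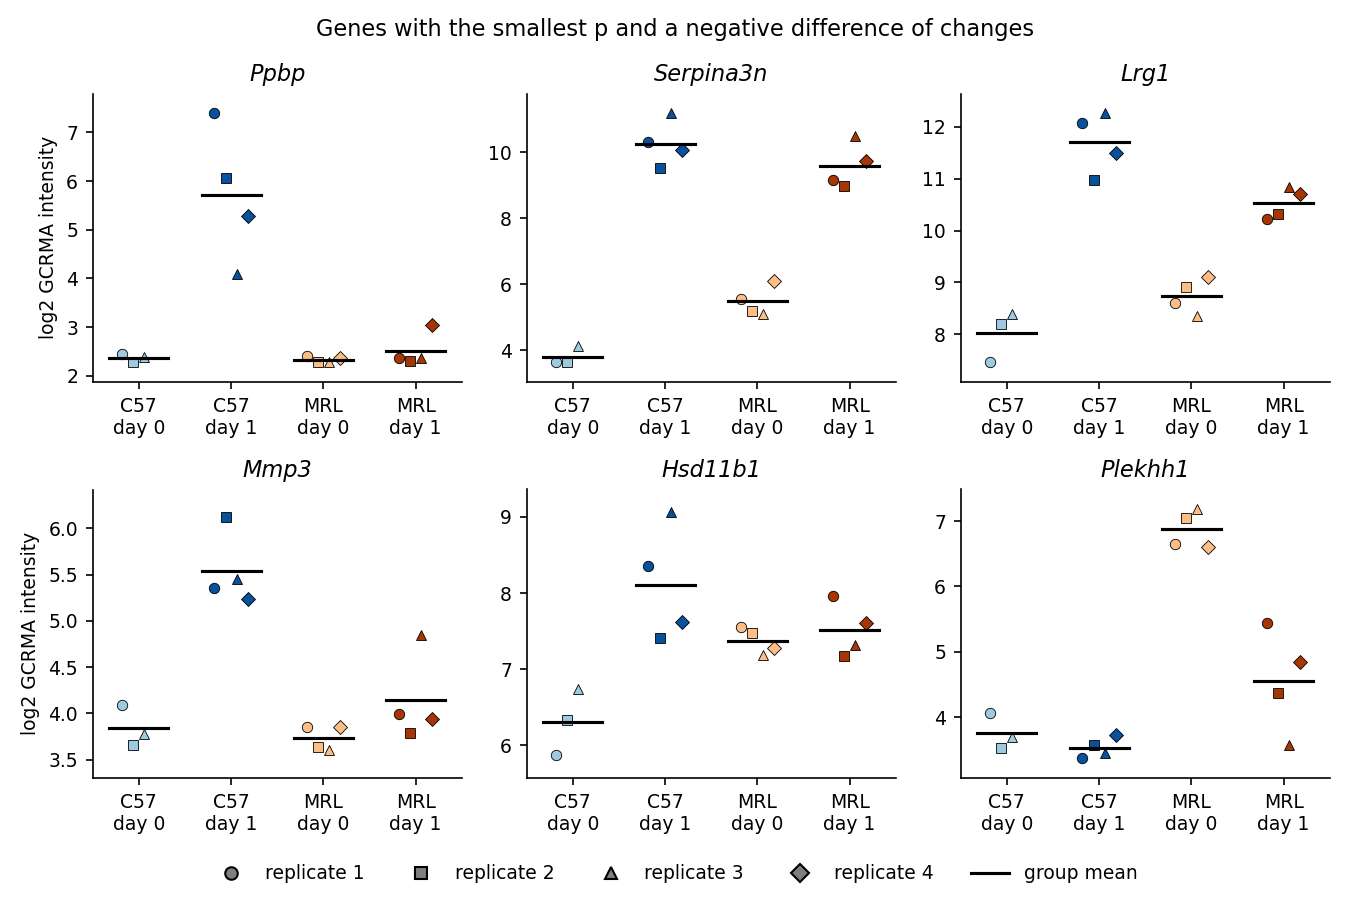
Log2 intensity of Ppbp, Serpina3n, Lrg1, Mmp3, Hsd11b1 and Plekhh1 in each non-infarct array of day 0 and day 1, with markers by replicate and a black line at each group's mean. Ppbp is high only in the C57 day 1 group (4.09 to 7.39), and Plekhh1 is high in the MRL groups, falling from between 6.61 and 7.18 to between 3.57 and 5.44.

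The fixed list of glucocorticoid responsive genes had the most negative median of the 34 lists. A negative difference of changes was seen in 18 of 20 tested members, and 12 had an unadjusted p under 0.05, with a median of -1.33. In C57, 9 rose (Fkbp5, Mt1, Mt2, Cdkn1a, Angptl4, Cebpd, Lcn2, Serpina3n and Sult1a1) and the median change was 1.87. In MRL, 4 rose (Mt2, Angptl4, Lcn2 and Serpina3n) and the median was 0.10. Several of these genes also answer to other signals: Lcn2, Serpina3n, Cebpd, Mt1 and Mt2 to inflammation, and Angptl4 and Pdk4 to fatty acids. Members were on average higher in MRL than in C57 at day 0 (median 0.79) and lower at day 1 (-0.85). The list shares 6 tested genes with the acute phase list and 2 with the fatty acid oxidation list. The GRE letters (GNACA, any 3 bases, then TGTNC, both strands) stood in 3 of the 17 promoters found for its members and in 0.475% of all promoters.

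Fkbp5, a co-chaperone of the glucocorticoid receptor and a common gauge of its activity, was at 5.23, 5.91 and 6.46 in C57 at day 0 and at 10.12, 8.75, 10.18 and 10.12 at day 1. In MRL it was at 7.46, 7.84, 5.37 and 7.62 at day 0 and at 7.34, 7.37, 9.72 and 7.77 at day 1. Replicate 3 of both MRL groups fell outside: the lowest at day 0 and the highest at day 1, while the other 6 MRL arrays lay between 7.34 and 7.84. Fkbp5 rose in C57 by 3.92 (adjusted p = 0.0011), and the MRL change was 0.98 (adjusted p = 0.52). The difference of changes was -2.95 ± 0.83 (adjusted p = 0.97), and -3.50 (adjusted p = 0.11) without MRL day 1 replicate 3. In infarct tissue it was -3.20 ± 0.82. Between non-infarct groups, replicate numbers were not found to pair samples, and deviations of the 2 arrays numbered 3 correlated at -0.178. Pairing with infarct arrays was not tested.

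Cdkn1a, the cell cycle inhibitor p21, read 6.67, 5.31 and 6.68 and then 9.93, 8.96, 9.71 and 10.81 in C57. In MRL it read 7.12, 7.12, 7.78 and 6.66, and then 7.08, 8.27, 10.28 and 8.45. It rose in C57 by 3.63 (adjusted p = 9.3e-04), while the MRL change was 1.35 (adjusted p = 0.26), and again replicate 3 alone reached the C57 day 1 range. The difference of changes was -2.28 ± 0.75, and -2.87 without it. Ddit4, an inhibitor of mTOR signalling picked after its values were seen, had a like pattern: MRL day 1 arrays were at 6.50, 6.51, 8.79 and 6.40, against 7.52 to 8.75 at day 0, and C57 went from between 5.77 and 7.39 to between 6.66 and 8.77. Its difference was -2.78 ± 0.81. Timp4, the metalloproteinase inhibitor of heart muscle, was at 5.76, 5.65, 8.72 and 5.71 in MRL at day 1 and at 7.12 to 9.69 in C57. Timp4 rose in C57 by 2.51 (adjusted p = 0.031) and had a difference of -2.84 ± 0.87, or -3.59 (adjusted p = 0.055) without replicate 3.

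Without MRL day 1 replicate 3, 16 glucocorticoid responsive genes had an unadjusted p under 0.05 (median -1.54). Without MRL day 0 replicate 3 there were 13 (-1.51), and without C57 day 1 replicate 2 there were 14 (-1.52). The probe sets that stand for the members were not called in these fits, but a second Fkbp5 probe set passed without MRL day 1 replicate 3 (-2.91, adjusted p = 0.031). In that fit 3 members rose in MRL, the call of Angptl4 being lost. In infarct tissue 19 of 20 were negative with a median of -1.13, and at day 5, which shares the day 0 arrays, the median was -0.37.

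**Figure D4:**
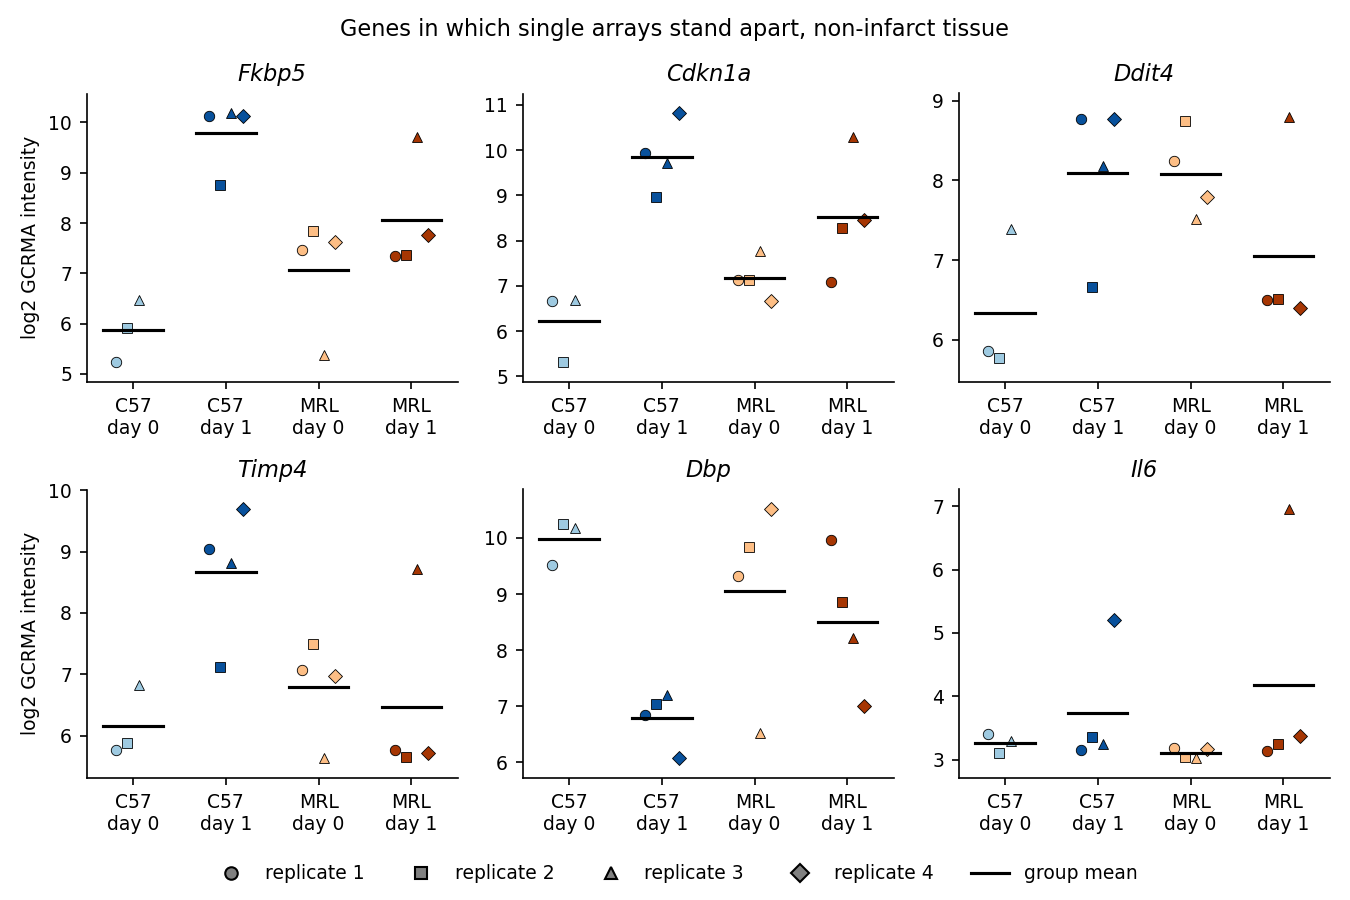
Log2 intensity of Fkbp5, Cdkn1a, Ddit4, Timp4, Dbp and Il6 in each non-infarct array of day 0 and day 1, with markers by replicate and a black line at each group's mean. MRL day 1 replicate 3 is the highest of its group for Fkbp5 (9.72), Cdkn1a (10.28), Ddit4 (8.79), Timp4 (8.72) and Il6 (6.95).

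Acute phase genes were among the largest rises of both strains. Of 20 tested members, 10 rose in C57 and 7 in MRL, with median changes of 0.94 and 0.74. The difference was negative for 16 of 20 with a median of -0.29, and 5 had an unadjusted p under 0.05. Lcn2, an iron-scavenging protein made by injured muscle and carried by neutrophils, lay between 2.55 and 2.95 in all day 0 arrays, and at day 1 between 9.87 and 11.19 in C57 and between 8.43 and 9.10 in MRL. It rose by 7.59 in C57 (adjusted p = 1.7e-10) and by 6.12 in MRL (adjusted p = 2.5e-09), with a difference of -1.47 ± 0.54, and at day 1 all C57 arrays were above all MRL arrays. S100a9, a calcium-binding protein of neutrophils, rose by 4.70 (adjusted p = 1e-05) and 3.50 (adjusted p = 0.00026), with a difference of -1.20 ± 0.66 that lay between -1.67 and -0.69 without 1 array. Only 4 of the 14 neutrophil genes on the array passed the filter, and the summed markers given at the start were higher in C57 at day 1. Lcn2 is itself among the 14 genes and makes up much of that linear sum, so the sum does not stand apart from it. The part of neutrophils in the values of Lcn2 was not tested.

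Several genes that act with interleukin 6 were picked after their values were seen. The receptor chains Il6ra (0.04 in C57 and -0.02 in MRL) and Il6st (-0.20 and 0.11) were not called in either strain. Stat3, the transcription factor of this pathway, rose by 0.96 in C57 (adjusted p = 0.0015) and by 0.95 in MRL (adjusted p = 0.0018), and its difference of changes was -0.01 ± 0.21. Osmr, the oncostatin M receptor, rose by 2.51 (adjusted p = 0.0019) and 2.19 (adjusted p = 0.0071). Socs3, the feedback inhibitor, rose by 2.73 (adjusted p = 0.013) and 2.89 (adjusted p = 0.012), the MRL rise being 2.37 (adjusted p = 0.053) without MRL day 1 replicate 3. Timp1, an inhibitor of matrix proteases induced by this pathway, rose by 5.50 (adjusted p = 1.1e-04) and 6.33 (adjusted p = 5.8e-06), a difference of 0.83 ± 0.92. Il6 itself was above 4 in only 2 of the 15 arrays, C57 day 1 replicate 4 (5.21) and MRL day 1 replicate 3 (6.95). Metallothionein Mt2, a zinc-binding protein, rose by 4.11 (adjusted p = 1.6e-04) and 3.01 (adjusted p = 0.0035).

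Of 21 tested cytokines and adhesion molecules, 19 had a positive difference, with a median of 0.43, and 1 had an unadjusted p under 0.05, a share near the 3.48% of all genes. Without MRL day 1 replicate 3, 14 of 19 were positive and the median was 0.21. Vcam1, an adhesion molecule of activated endothelium, had a value of 1.59 ± 0.66, with changes of -1.11 in C57 and 0.49 in MRL that did not pass. Other Vcam1 probe sets gave differences of 0.44 ± 0.37 and -0.02 ± 0.31. In C57, 3 members rose (Ccl6, Ccl9 and Socs3) and in MRL 4 did (the same 3 and Ccl7), or 2 without MRL day 1 replicate 3, when the calls of Socs3 and Ccl7 were lost. The chemokine Ccl6 rose by 3.03 (adjusted p = 2.6e-05) and 3.50 (adjusted p = 2e-06). Ccl2, which draws monocytes, had a difference of 0.38 ± 0.97 and ranged from 5.21 to 8.01 in C57 and from 5.46 to 9.34 in MRL at day 1. Without MRL day 1 replicate 3, the highest, its difference was -0.44.

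Heart muscle genes had differences of changes near 0. None of 22 sarcomere and calcium handling genes had an unadjusted p under 0.05 (median 0.05), and Myh6 (0.03 ± 0.25) and Atp2a2, the calcium pump of the sarcoplasmic reticulum (-0.06 ± 0.23), were near 0. For Myh6 the sign turned when arrays were centred on their medians (-0.015). Myh7, the fetal myosin, spread from 5.86 to 8.72 in C57 at day 0 and from 6.98 to 10.26 at day 1, and its difference was 0.12 ± 1.10.

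Among 13 fetal and stress genes, 4 rose in C57 (Ankrd1, Xirp1, Fhl1 and Rcan1) and 3 in MRL (Nppb, Ankrd2 and Fhl1), with median changes of 1.00 and 0.85. Without C57 day 5 replicate 3, which is outside this contrast, the counts were 5 and 6. Nppb, the B-type natriuretic peptide of stretched muscle, read 11.40, 11.02 and 11.37 and then 10.78, 13.31, 12.40 and 12.55 in C57. In MRL it read 10.34, 10.17, 10.86 and 9.47 and then 12.16, 13.03, 12.47 and 12.91. It rose in MRL by 2.43 (adjusted p = 0.0036) from the lower start, and its C57 change was 1.00 (adjusted p = 0.22), with replicate 1 at 10.78. The difference was 1.43 ± 0.59, and 0.94 without that array. Ankrd2, a stretch-responsive ankyrin repeat protein, was between 3.06 and 3.31 in all day 0 arrays, then at 3.35, 6.98, 5.25 and 6.24 in C57 and at 5.58, 8.60, 8.56 and 7.50 in MRL. It rose in MRL by 4.40 (adjusted p = 0.00053) and its difference was 2.13 ± 0.89. C57 day 1 replicate 1 was the lowest of its group for both genes. Nppa, the atrial peptide, had a difference of 0.27 ± 0.72.

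All 23 tested fatty acid oxidation genes had a difference below 0, at a median of -0.21, but only Angptl4 and Pdk4, which are also on the glucocorticoid list, had an unadjusted p under 0.05. Over all tested genes 54.1% had a difference above 0 and 3.48% an unadjusted p under 0.05. Angptl4, an inhibitor of lipoprotein lipase, rose by 4.93 in C57 (adjusted p = 1.6e-04) and by 3.02 in MRL (adjusted p = 0.014, or 0.051 without MRL day 1 replicate 3), with a difference of -1.91 ± 0.87. Pdk4, which turns glucose away from oxidation, had a difference of -2.32 ± 1.07. Oxidative phosphorylation genes lay at a median of -0.01, with 0 of 21 at an unadjusted p under 0.05. The heme oxygenase gene Hmox1 rose in both strains, by 3.35 (adjusted p = 0.0089) and 3.03 (adjusted p = 0.024), the latter call being lost without MRL day 1 replicate 3 (2.41, adjusted p = 0.094) and 5 other MRL arrays in turn.

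Clock genes cycle with the hour of the day, and the labels do not give the hour at which tissue was taken. Dbp, a transcription factor with a strong daily rhythm, was at 9.51, 10.25 and 10.18 and then at 6.85, 7.04, 7.20 and 6.07 in C57. MRL arrays were at 9.32, 9.84, 6.52 and 10.51 and then at 9.96, 8.86, 8.21 and 7.01. Dbp fell by 3.19 in C57 (adjusted p = 0.017), as did its relative Hlf by 1.66 (adjusted p = 0.031). The difference of Dbp was 2.65 ± 1.00. MRL day 0 replicate 3, low for Dbp, was high for Arntl, whose rhythm runs in the opposite phase (6.08 against 3.26 to 3.45 in the rest of its group). Of 14 tested clock genes, 2 had an unadjusted p under 0.05, with a median of 0.33.

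In the matrix and vessels, Col15a1, a basement membrane collagen, was at 8.16, 8.00 and 7.37 and then at 4.22, 6.92, 4.06 and 3.78 in C57. MRL arrays were at 7.38, 6.95, 8.06 and 7.50 and then at 7.48, 7.61, 6.12 and 6.33. It fell by 3.10 in C57 (adjusted p = 0.0047), and its MRL change was -0.59. The difference was 2.51 ± 0.80. Aplnr, the endothelial apelin receptor, fell by 3.15 in C57 (adjusted p = 0.0033) and had a difference of 2.48 ± 0.78. A second Aplnr probe set gave 1.09 ± 0.47. Col15a1 and Aplnr were both higher in C57 day 1 replicate 2 (6.92 and 7.54) than in the rest of that group. Of 37 tested collagens and matrix proteins 28 had a positive difference (median 0.25), and 1 had an unadjusted p under 0.05, against 54.1% and 3.48% of all genes. Of 17 endothelium markers 8 were positive and 4 had an unadjusted p under 0.05. Ccn2, a matricellular growth factor, rose in both strains, by 3.35 (adjusted p = 0.00094) and 2.29 (adjusted p = 0.023), but the MRL call was lost in 6 of the fits without 1 array. Col1a1, the main fibrillar collagen, had a difference of 0.53 ± 0.73.

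Of 28 tested cell cycle genes, 27 had a positive difference, with a median of 0.20, against 54.1% positive among all genes. An unadjusted p under 0.05 was found for 1, a share near the 3.48% of all genes: Ccnd1, the G1 cyclin (0.94 ± 0.37). Mki67, a marker of dividing cells, was below the median of all 15 arrays, with a difference of 0.21 ± 0.82. Ddit3, a stress transcription factor, was at 6.38 to 7.37 in C57 and 7.45 to 7.91 in MRL at day 1, with a difference of 0.90 ± 0.26. Of 15 skeletal muscle markers 4 were tested, and 2 were higher in MRL at day 0 and 3 at day 1. Acta1, skeletal alpha actin, was higher by 1.75 at day 0 (adjusted p = 0.0099) and 2.24 at day 1 (adjusted p = 0.00033), with a difference of changes of 0.49 ± 0.49. Myl1, a myosin light chain, was higher by 1.29 (adjusted p = 3e-04) and 1.51 (adjusted p = 2e-05), with a difference of changes of 0.21 ± 0.26.

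**Figure D5:**
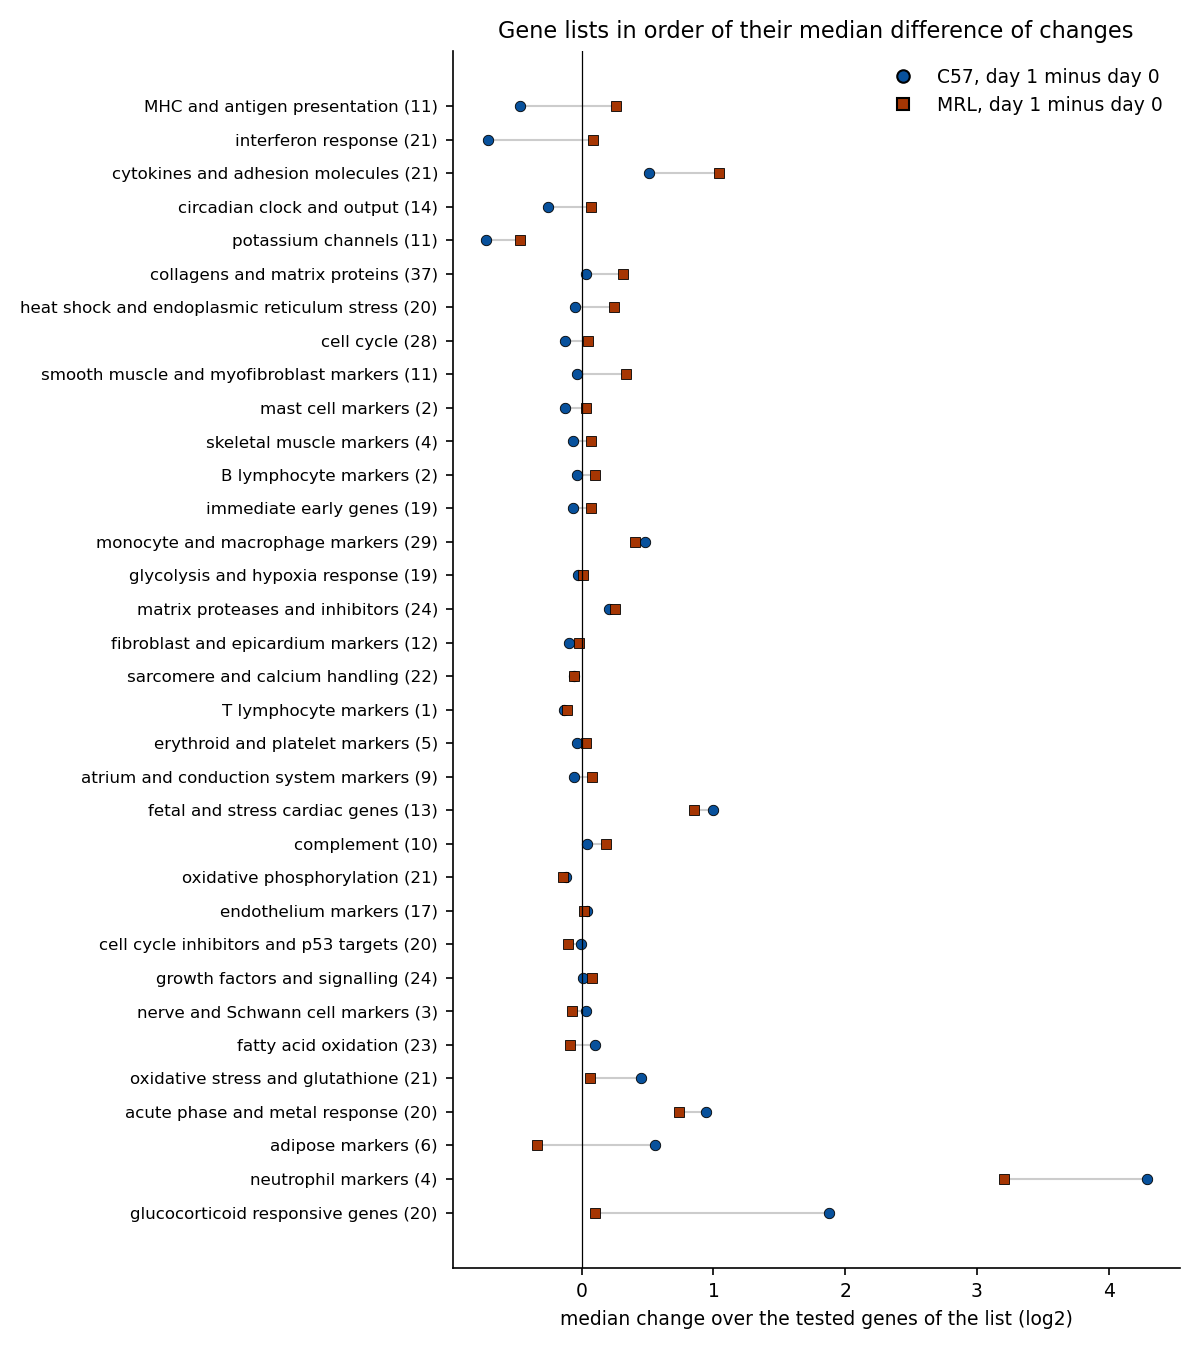
Median change from day 0 to day 1 (log2) in C57 (circles) and MRL (squares) for each gene list, over its tested members (number in brackets), sorted by the median difference of changes. The glucocorticoid list is last (-1.33), and the MHC (0.83) and interferon (0.68) lists come first, with the C57 circle left of zero.

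The same contrast in the infarct and border tissue, on arrays of its own, passed for 6 of 12834 probe sets (0.0468%), all below 0: Plekhh1, Angpt1 (an endothelial growth factor, -1.92), Kcnj5 (a potassium channel subunit, -1.36), Ociad1 (-1.37) and 2 without a symbol. In non-infarct tissue Angpt1 had a value of -0.89, Kcnj5 of -0.43 and Ociad1 of -0.44. Across the 12214 probe sets tested in both regions the differences of changes correlated with r = 0.557. All 16 genes named above for the smallest p had the same sign in infarct tissue, although the value of Ifit3 there was near 0. The same held for 369 of the 406 probe sets with an unadjusted p under 0.05 (90.9%). The share with the same sign over all 12214 probe sets was not counted, so these counts have no background. How many hearts gave tissue to both regions is not stated, so the regions may not be independent. A direct test of region against strain and infarction passed for 0 of 13138 probe sets (0%), with 123 at an unadjusted p under 0.05 (0.936%) and a median standard error of 0.501. At day 5 in non-infarct tissue the contrast passed for 1 of 12344 (0.0081%): Vsig4, a complement receptor of resident macrophages (2.28, limma, adjusted p = 0.0031), whose day 1 value was 0.18.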

How the data were processed

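RNA of non-infarct left ventricle was measured on Affymetrix MOE430A arrays, 1 array per sample. The deposited values are intensity per probe set on a linear scale, which the authors corrected for background, normalized and summarised with GCRMA per the submitters' processing notes (no version given). Array medians lay between 18.58 and 20.81. The smallest value was 1.03, so log2 was taken with no pseudocount. Arrays have no read depth, and their number limits the precision.

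A mean per group was fitted to the 23 non-infarct arrays by lmFit and eBayes of limma 3.58.1 (R 4.3.3), tests were two-sided, Benjamini-Hochberg adjustment ran over the 12344 tested probe sets, and a call is an adjusted p under 0.05. The infarct contrast was fitted on the infarct arrays and the contrast between regions on all 46. The fit was tested on simulated data. The highest correlation of 2 arrays was 0.9963 and 0 pairs were identical. A gene is represented by its brightest tested probe set with 1 symbol (691 probe sets had several symbols and 1555 none). For Gbp2 the array values printed are those of the dimmer probe set. Named genes are, in each direction, those called or, up to 8, those with the smallest p, then up to 2 uncalled members of each list with the smallest p, and 16 index genes. Others, and list members given as examples, were chosen after their values were seen. The gene lists, rules and alternatives were chosen with earlier results of these data known. Alternatives changed the filter, the normalization, an added offset, the arrays fitted, the variance model and a replicate block. Between non-infarct groups, replicate numbers were not found to pair samples. Deviations of arrays with the same number correlated between -0.18 and 0.455, and 7 of 21 pairs exceeded 0.1. Infarct and non-infarct arrays of the same number were not compared in this way.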

Additional observations from a re-analysis of the deposited data

Results flagged for a closer look

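Gbp3 was the 1 gene whose change differed between the strains in the test of the difference itself (2.31 on the log2 scale, limma, adjusted p = 0.0044).

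Of 267 groups of 4 arrays examined over 89 genes, 20 held an array far from the other 3, where about 13 would be expected, since the criterion marks about 1 group in 20 by chance. In MRL day 1 replicate 3, Timp4 (8.72), Fabp4 (13.79), Il6 (6.95) and Ddit4 (8.79) were each far above the rest of the group, all as log2 intensity. In MRL day 1 replicate 4, Ppbp (3.04) and Tpsb2 (4.66) were high, and in MRL day 1 replicate 1, Dusp10 (4.89) was low.

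Among MRL day 0 arrays, replicate 3 was high for Timeless (5.09) and Dpt (9.98) and low for Fkbp5 (5.37). Replicate 1 was low for Ddit3 (7.04), Dkk3 (4.83) and Gbp2 (dimmer probe set, 4.80), and replicate 2 was high for Ifit3 (5.09). In C57 at day 1, replicate 2 was low for Fkbp5 (8.75) and high for Col15a1 (6.92). Replicate 1 was low for Bhlhe40 (7.02), replicate 3 for Kcnk3 (9.41) and replicate 4 for Notch3 (6.81), while Il6 was high in replicate 4 (5.21).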

How the results depend on the processing

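Of 85 named genes, 76 kept the sign of their difference of changes in all alternatives run. The call of Gbp3 held in 23 of 26 alternatives. It was lost with 32 added to the intensities (1.14, adjusted p = 0.11), with the 15 arrays of days 0 and 1 (2.31, adjusted p = 0.058) and with those arrays under a trended, robust variance, chosen after seeing the data (2.31, adjusted p = 0.054), and it lay between 2.09 and 2.49 without 1 array. The count of probe sets passing the difference of changes, 1 as reported, was 0 under both 15-array fits, 2 with no filter, 2 with all 46 arrays and 1 to 6 without 1 array. It was 6 without MRL day 1 replicate 3 (Gbp3, Mmp3, Slc10a6, Spock2, a second Fkbp5 probe set and Tmem38b), 3 without C57 day 1 replicate 2, and 2 without C57 day 1 replicate 3 (Gbp3 and Ppbp). In these fits Mmp3 and Ppbp met the filter only through C57 day 1, where they are high. With no filter, 6 of 38 printed C57 calls and 3 of 20 MRL calls of single genes were lost. For the C57 change (492 calls), the 15 arrays gave 804, with trend and robust 876, leaving out C57 day 5 replicate 3 gave 934, and leaving out 1 array of days 0 and 1 gave 177 to 633. For the MRL change (121) these were 404, 445, 317 and 45 to 212. MRL against C57 at day 0 (222) gave 348 with the trended 15 arrays, 369 without C57 day 5 replicate 3 and 136 to 237 without 1 array, and at day 1 (342) 556, 632 and 203 to 526. The replicate block gave 199 calls for the MRL change, and for the difference of changes 1 call, Gbp3 (2.31, adjusted p = 0.021). The block changed no other count by over 1.5 times. The sign of Cd4 turned under quantile normalization (-0.014) and median centring (-0.016), and that of Myh6 under centring (-0.015). Leaving out 1 array, the difference spanned 0 for Cd4 (-0.073 to 0.171), Ighm (-0.052 to 0.363), Ms4a1 (-0.071 to 0.295), Tpsb2 (-0.0033 to 0.167), Dkk3 (-0.170 to 0.501), Myh6 (-0.035 to 0.096), Myh7 (-0.677 to 0.752), Atp2a2 (-0.136 to 0.071) and Ccl2 (-0.439 to 0.913). The cause of these shifts was not tested. Dim genes such as Ppbp and Plekhh1 in C57, and Gbp3 in C57 at day 1, lie below the array median, where a change is not measured exactly.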
